A study of Chlorocebus sabaeus with 10 samples.

Results

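miR-21 was described here through its 2 mature forms, hsa-miR-21-5p and hsa-miR-21-3p in the naming of the table, which are cut from the 5p and the 3p arm of 1 hairpin, mir-21. Both were chosen by name, 2 of 2588 mature names in all, and both had reads, as had 680 of all names. Small RNA sequencing was done on livers of 10 female vervet monkeys (Chlorocebus sabaeus), 5 fed a high fructose (HFr) diet and 5 fed chow, after all had been kept on chow. Neither age nor genotype was given in the labels. The study asked which hepatic miRNAs differ by diet. For miR-21 that question was not addressed here, because libraries are only numbered in the table, without a link to the labelled animals, and none can be placed in a diet group. Every value below is the authors' read count pooled over all libraries of the table. It has no replicates, no spread between animals and no test of diet, and libraries sequenced more deeply weigh more in it. The pool held 2043164 reads when each mature name was counted once, at its row with the highest count. Intervals cover counting error alone, and reads are not independent molecules. Comparisons between miRNAs describe reads, since adapter ligation favors some miRNAs over others.

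A miRNA hairpin is cut into a short duplex, 1 strand of which is usually kept by an Argonaute protein and the other degraded. The strand that is kept pairs with messenger RNAs through its seed, the bases near its 5' end, and lowers their stability or translation. The human MIR21 gene lies at the 3' end of VMP1, a gene for an autophagy protein, and is transcribed largely from its own promoter under STAT3 and AP-1. miR-21-5p is known for being raised in injured, inflamed and fibrotic liver, in hepatocytes as well as in stellate cells and leukocytes. Its known targets include PDCD4, a translation inhibitor, RECK, an inhibitor of matrix metalloproteinases, and PPARA, the nuclear receptor that drives fatty acid oxidation in hepatocytes. The small RNA data hold no messenger RNA, so none of these targets was measured here, and with pooled reads neither a response to injury nor an action on PPARA could be assessed. The vervet gene table used here (RefSeq, assembly mChlSab1.0.hap1) lists VMP1 between the protein coding genes TUBD1 and PTRH2. It lists 0 genes of type miRNA, so no position is given for vervet mir-21.

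The arms of mir-21 differed in abundance by more than any counting error. miR-21-5p, the strand known as the active one, had 91173 reads (exact Poisson 95% interval 90582 to 91767). miR-21-3p, the opposite strand of the duplex, had 45 reads (interval 32.8 to 60.2). The 5p arm thus carried 2026 reads for each read of the 3p arm, with an exact binomial interval of 1514 to 2778 for this ratio. All but 45 of the 91218 reads of the hairpin came from the 5p arm, a share of 99.95% (Wilson interval 99.93 to 99.96%). Each arm stood on a single row of the table, so neither count shares reads with a second precursor in these files.

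miR-21-5p was the 4th most abundant mature miRNA of the vervet liver pool. It contributed 4.46% of all reads (Wilson interval 4.43 to 4.49%). The first 4 names together held 60.4% of the reads. Of the 680 names with reads, 676 had fewer than miR-21-5p. The 3 names directly above it were miR-122-5p, the hepatocyte miRNA that sustains cholesterol and lipid gene expression, with 922528 reads, let-7a-5p with 124454 reads and let-7f-5p with 96565 reads. The let-7 miRNAs are broadly expressed repressors of growth genes.

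The gaps to these neighbors were unequal. miR-122-5p exceeded miR-21-5p 10.1-fold (exact binomial interval 10.05 to 10.19). let-7a-5p had 1.37 times as many (interval 1.35 to 1.38). let-7f-5p had 1.06 times as many (interval 1.05 to 1.07), which lies outside counting error but rests on no measure of the spread between animals. Both let-7 names stood on several precursor rows with nearly the same count, for let-7a-5p 124454, 124232 and 124200. Rows so nearly equal probably count the same reads, and a sum over them is then an upper limit. When all rows were added, let-7a-5p had 4.09 times and let-7f-5p 2.12 times the reads of miR-21-5p. The rank of miR-21-5p was 4 under either way of counting. Below it there was a wider step to miR-378a-3p, a miRNA of mitochondrial metabolism, with 51168 reads. miR-21-5p exceeded that name 1.78-fold (interval 1.76 to 1.80). The next names were miR-194-5p, a hepatocyte miRNA, with 46304 reads and miR-26b-5p with 44887 reads, which miR-21-5p exceeded 1.97-fold and 2.03-fold, respectively. No other name had a count inside the Poisson interval of miR-21-5p.

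**Figure D1:**
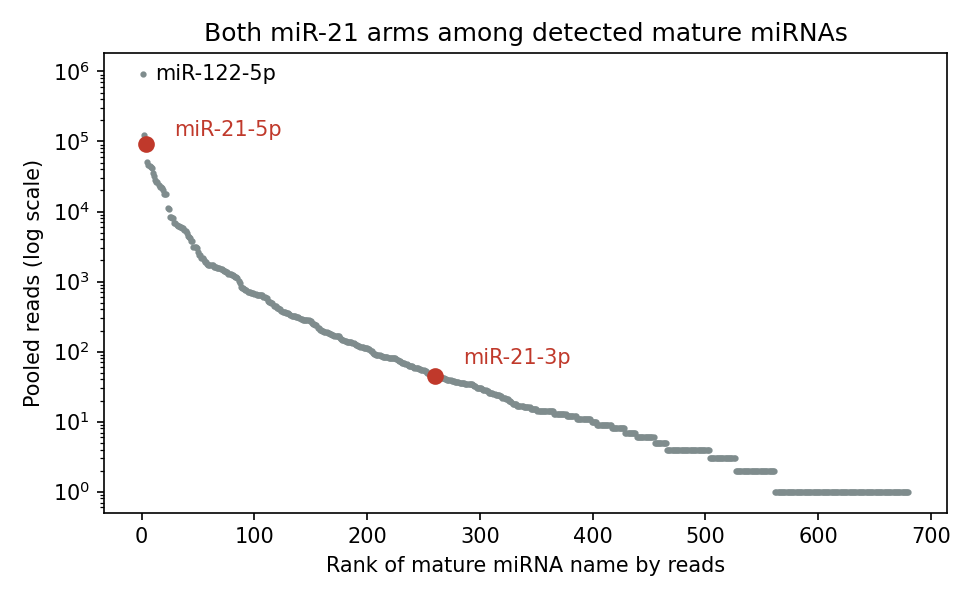
Pooled reads of each of the 680 mature miRNA names with reads (y axis, log scale) against their rank (x axis), 1 grey point per name, with both miR-21 arms in red. miR-21-5p is 4th with 91173 reads on the steep start of the curve, and miR-21-3p is at rank 260 with 45 reads in its long middle part.

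miR-21-3p stood far down the same order. It held 0.00220% of the reads (Wilson interval 0.00165 to 0.00295%). Its rank was 260, a place it shared with miR-181a-2-3p and miR-505-5p, which also had 45 reads each. The names with slightly more reads were miR-524-3p and miR-671-5p (46 each) and miR-99b-3p (47). Those with slightly fewer were miR-330-3p and miR-379-3p (44 each) and miR-127-5p (43). None of these differed from miR-21-3p beyond counting error, the widest ratio being that to miR-127-5p at 1.05 (exact binomial interval 0.674 to 1.63). Altogether 52 other names had counts inside the Poisson interval of miR-21-3p, so its rank is only roughly determined. It was still above most detected names, of which 418 had fewer reads (61.5%), and above the median of 16 reads over the names with reads.

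The arm ratio was then set against other hairpins. Both arms were named for 933 hairpins, and 179 of these had at least 100 reads. In 14 of the 179 the 5p share was higher than in mir-21. Of these, 8 gave a mature miRNA that is also listed at a further precursor. Reads from elsewhere may then be counted on that arm and raise its share. The nearest hairpins above mir-21 were of this kind: mir-30c-1 (99.97%), let-7f-2 (99.98%) and mir-26a-1 (99.99%). The nearest below were let-7e (99.95%), mir-26a-2 (99.94%) and let-7i (99.94%).

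Among the 131 hairpins whose arms were each listed at 1 precursor, the 5p share was higher than in mir-21 in 6, namely mir-10b, mir-146a, mir-155, mir-15a, mir-182 and mir-619. All 6 had 0 reads on the 3p arm and between 139 and 1746 reads in all, and all 6 intervals overlapped that of mir-21. At the 3p share of mir-21, the deepest of them would carry 0.861 reads on its 3p arm. The mir-21 hairpin was the second deepest of the 131, after mir-122.

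**Figure D2:**
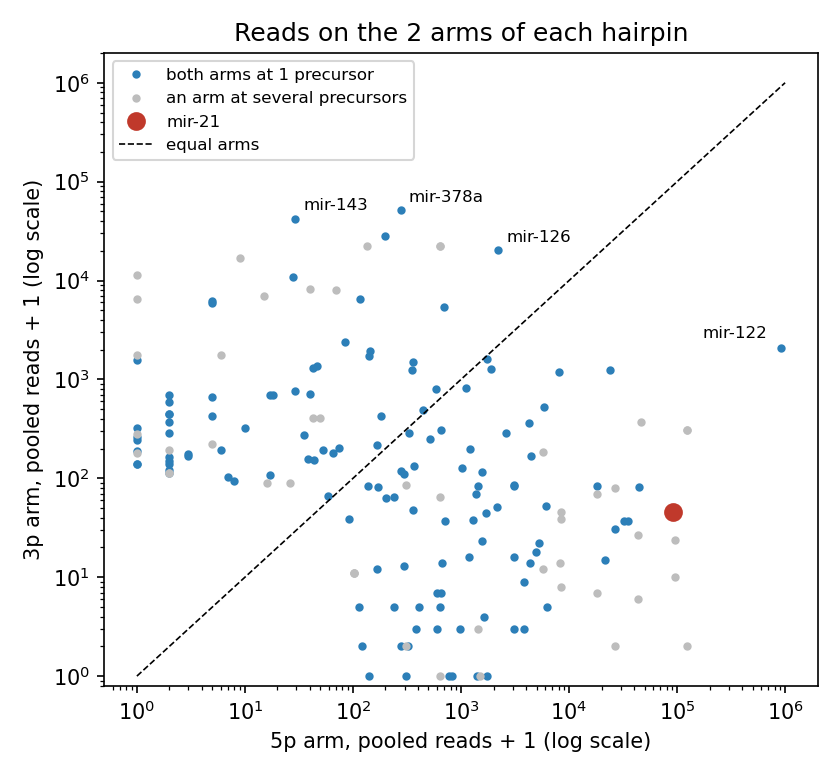
Reads + 1 on the 5p arm (x axis) and the 3p arm (y axis) of each of the 179 hairpins with at least 100 reads, both on log scales, with hairpins listed at 1 precursor in blue, those sharing an arm with another precursor in grey, mir-21 in red and the dashed line at equal arms. mir-21 lies far to the right and low, at 91173 reads on the 5p arm against 45 on the 3p arm, well below mir-122 with 922528 against 2063.

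The share of the minor arm, whichever arm that was, was compared in the same way. In mir-21 the minor arm held 0.0493% of the hairpin's reads (Wilson interval 0.0369 to 0.0660%). The minor share was lower than this in 27 of the 179 hairpins, 13 of them among the 131 listed at 1 precursor. Those 13 had 0 reads on the minor arm, and their intervals all overlapped that of mir-21. Some hairpins with an arm listed at several precursors lay wholly below it, such as let-7a-2 (interval 0.000142 to 0.00455%). The median minor share over the 131 hairpins listed at 1 precursor was 1.73%, which is 35.1 times as high. At that median share, a hairpin with the reads of mir-21 would carry 1579 reads on its minor arm, against the 45 counted. Over all 179 hairpins the median minor share was lower, at 0.893%, which would give 814 reads. Of the hairpins listed at 1 precursor, 59 had at least 1000 reads, mir-21 among them. The interval of the minor share lay wholly above that of mir-21 in 47 of them, overlapped it in 11 and lay wholly below it in 0.

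Other deep hairpins showed how wide the range was. mir-122, with 10.1 times the reads of mir-21, kept 0.223% on its minor arm, and mir-26b kept 0.180%. mir-378a and mir-148a, a hairpin whose main strand acts on the LDL receptor, kept 0.535% and 0.701%. At the other end of the 15 deepest listed at 1 precursor, mir-126, the endothelial hairpin, kept 9.73% and mir-30e 12.7%. Hairpins with fewer reads reached higher shares, such as mir-151a with 47.7% of 3349 reads. Among the 15 deepest hairpins listed at 1 precursor, those closest to mir-21 were let-7c with 14 reads on its minor arm (0.0653%, interval 0.0389 to 0.110%) and mir-143, a smooth muscle and stellate cell hairpin, with 28 (0.0661%, interval 0.0458 to 0.0956%). Neither differed from mir-21 beyond counting error.

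**Figure D3:**
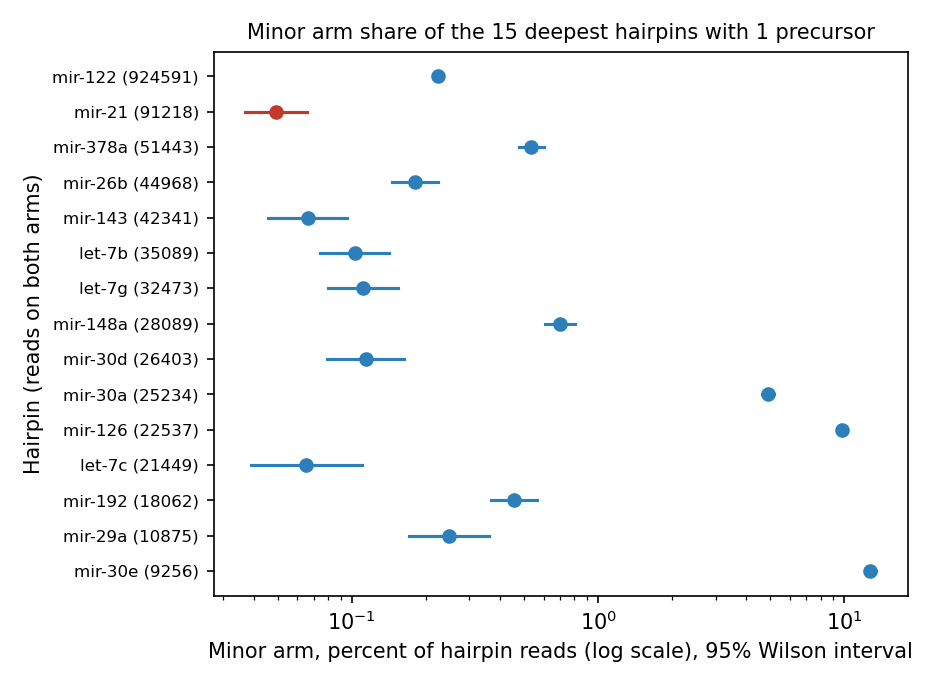
Share of the minor arm in the 15 deepest hairpins listed at 1 precursor (x axis, percent of the hairpin's reads, log scale), as points with 95% Wilson intervals, ordered from the deepest at the top, with mir-21 in red. mir-21 has the lowest share at 0.0493%, with overlapping intervals for mir-143 (0.0661%) and let-7c (0.0653%) and a share of 12.7% for mir-30e at the other end.

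Despite its low share, miR-21-3p was not the rarest minor strand in absolute reads. A total of 61 other minor arms had more reads than miR-21-3p. The 5 most abundant were miR-126-5p (2193 reads), miR-122-3p (2063), miR-151a-3p (1597), miR-28-3p (1271) and miR-30a-3p (1237). The minor arms of let-7b and let-7g, at 36 reads each, and of mir-30d, at 30, were close to miR-21-3p in count although their hairpins had fewer reads.

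miR-590-5p is known to have the same seed as miR-21-5p and is grouped with it as a seed family. It had 9 reads (exact Poisson interval 4.12 to 17.1), so miR-21-5p exceeded it 10130-fold (exact binomial interval 5336 to 22155). Nearly all reads of both names therefore came from miR-21-5p. The arm bias of mir-590 was the opposite of that of mir-21. Its 3p arm had 325 reads, 36.1 times as many as its 5p arm (interval 18.8 to 79.7), and the 5p arm held 2.69% (interval 1.42 to 5.04%). With 45 reads, miR-21-3p was more abundant than miR-590-5p by 5.00-fold (interval 2.41 to 11.6) but less abundant than miR-590-3p, which exceeded it 7.22-fold (interval 5.28 to 10.1).

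In a list of miRNAs reported to target PPARA, most reads were from miR-21-5p. The list had 12 members, of which 10 had reads, against 680 of all 2588 names. miR-21-5p made up 79.2% of their 115160 reads (Wilson interval 78.9 to 79.4%) and had 3.80 times as many reads as all others together (interval 3.75 to 3.86). The next member was miR-27b-3p, a regulator of lipid genes, with 6527 reads, which miR-21-5p exceeded 14.0-fold (interval 13.6 to 14.3). miR-22-3p, which also acts on sirtuin genes, had 5426 reads, and miR-20a-5p of the miR-17-92 cluster had 5282. miR-34a-5p, a p53-induced miRNA known for its action on SIRT1, had 3804 reads, 24.0-fold fewer than miR-21-5p (interval 23.2 to 24.8). The remaining members with reads were miR-17-5p (2163), miR-27a-3p (425), miR-10b-5p (310), miR-141-3p (39) and miR-20b-5p (11). miR-519d-3p and miR-506-3p had 0 reads, which allows a share of up to 0.000147% each. The members had a median of 1294 reads, against 0 over all names in the table and 16 over the names with reads. The list was chosen with earlier results of these data known. Neither its higher median nor the share of miR-21-5p in it is therefore a result about PPARA-targeting miRNAs. Without miR-21-5p the list held 1.17% of all reads.

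miR-21-5p also led a list of miRNAs known to be raised in injured or fibrotic liver. That list too was chosen with earlier results of these data known, so the share of miR-21-5p depends on the names listed. All 15 members had reads, against 680 of all 2588 names. miR-21-5p contributed 69.2% of the list's reads (Wilson interval 69.0 to 69.5%), while miR-21-3p was the member with the fewest reads. Next to miR-21-5p came miR-199a-3p, a stellate cell miRNA, with 22258 reads. miR-21-5p exceeded it 4.10-fold (interval 4.04 to 4.16). The excess was 1.37-fold when all precursor rows were added, where the 3 rows of miR-199a-3p probably count the same reads. The share of miR-21-5p in the list was then 49.6%. miR-125b-5p had 5752 reads, miR-34a-5p 3804, miR-221-3p 1574 and miR-181b-5p 1514.

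The inflammatory members were much rarer. miR-146a-5p, which restrains NF-kB signaling, had 1746 reads, 52.2-fold fewer than miR-21-5p (interval 49.8 to 54.8). miR-155-5p, a miRNA of activated leukocytes, had 824 reads, 111-fold fewer (interval 103 to 119). miR-223-3p, a myeloid miRNA, had 694 reads, 131-fold fewer (interval 122 to 142). miR-214-3p (711 reads), miR-222-3p (694), miR-199a-5p (635), miR-210-3p (191), which responds to hypoxia, and miR-132-3p (83) completed the list, whose median was 824 reads.

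**Figure D4:**
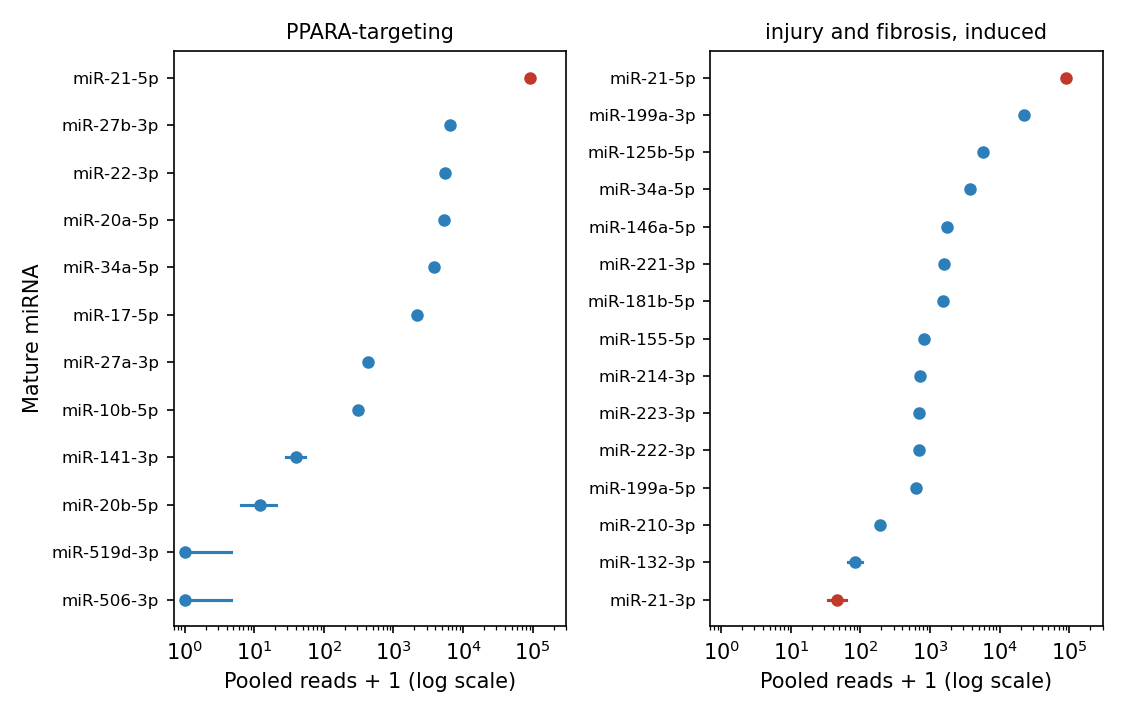
Pooled reads + 1 (x axes, log scale) of each member of 2 lists, miRNAs reported to target PPARA (left) and raised in liver injury and fibrosis (right), with exact Poisson 95% intervals as bars and the miR-21 arms in red. miR-21-5p is the top member of both lists at 91173 reads, and miR-21-3p, at 45 reads, is the lowest of the injury and fibrosis list.

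The 8 miRNAs known to be lowered in fibrosis or to oppose it all had reads, against 680 of all 2588 names. Together they came to 84995 reads, so that miR-21-5p alone had 1.07 times as many (exact binomial interval 1.06 to 1.08). With all precursor rows added this ratio was 0.867 and its direction turned. That sum holds miR-30c-5p at 36005 reads, from 2 near-equal rows that probably count the same reads. Most of the 84995 reads were from miR-378a-3p. miR-30c-5p had 18020 reads and miR-29a-3p, which represses collagen genes, 10848. miR-21-5p exceeded miR-29a-3p 8.40-fold (interval 8.24 to 8.57). miR-29c-3p had 2365 reads, miR-19b-3p 1762, miR-150-5p 411, miR-29b-3p 405 and miR-133a-3p 16.

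miR-21-5p is made by many cell types, and its reads were compared with those of miRNAs that mark the cells of the liver. miR-122-5p, which defines hepatocytes, was the most abundant miRNA of the pool, as a label of liver implies. The hepatocyte markers held 50.7% of all reads, with reads on 7 of 8 members, against 680 of all 2588 names. miR-122-5p alone made up 89.1% of the reads of these markers, and miR-802 was the member with 0 reads. miR-21-5p had 0.0881 times as many reads as these markers together (interval 0.0875 to 0.0887). Against single hepatocyte markers other than miR-122-5p it was the more abundant, for example 5.07-fold over miR-192-5p (interval 4.99 to 5.15). Against all 9 stellate cell and fibroblast markers, which held 3.96% of reads, the ratio was 1.13 (interval 1.12 to 1.14). With all precursor rows added it was 0.692, so that its direction turned. That sum holds miR-199a-3p at 66678 reads against 22258, from 3 rows that probably count the same reads. miR-21-5p had more reads than each remaining set of markers. It exceeded the sum of the 5 endothelial markers 3.99-fold (1.12% of reads), that of the 4 red blood cell markers (0.564%) 7.91-fold, that of the 6 leukocyte markers (0.258%) 17.3-fold and that of the 5 biliary markers (0.0946%) 47.2-fold. The endothelial sum was mostly miR-126-3p (89.0%) and the red blood cell sum mostly miR-486-5p (73.6%). The largest members of the leukocyte and biliary sums held less, miR-146a-5p 33.2% and miR-200b-3p 39.5%. When all rows were added the red blood cell ratio was 4.59. These are ratios of reads in whole tissue, where more cells of a type and more miRNA per cell cannot be told apart, and how far each cell type contributed to the miR-21 reads was not tested.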

How the data were processed

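Per the labels, RNA of flash-frozen liver (Zymo Direct-zol) went into Illumina TruSeq small RNA libraries. The methods name miRDeep2 for quantification, and the tools listed in the submitters' processing notes are cutadapt 1.10 and Bowtie. Neither a genome build nor a miRNA release is stated (not given in the sources used here). All names are human, and a vervet miRNA that differs from the human sequence could be undercounted. The authors deposited raw read counts in 1 table of 2948 rows, each a mature miRNA at a precursor. Only their total count over all libraries was used. The 20 library columns, raw and normalized, match no sample and were left out, so depth per library is not given.

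Names on several rows were represented by their highest total. Adding all rows gave 2669761 reads, 1.31 times as many. Where rows of a name are nearly equal, this sum probably counts the same reads more than once. Shares have 95% Wilson intervals, counts exact Poisson intervals and ratios of counts exact binomial intervals. The limit for a count of 0 was 3 reads. On simulated data of 403 names, 94.9% of the share intervals held the true value. Reads were drawn independently at the observed shares, so this checks the computation only. It does not cover the spread between libraries or animals. Of the 9 lists used, those on PPARA, on injury and fibrosis and on miRNAs lowered in fibrosis have all their members named. Those of cell type markers were used mainly as sums, and only some of their members are named. Also named were both arms and the 3 names on either side of each arm by reads. Hairpins named were the 3 on either side of mir-21 by 5p share, and the deepest hairpins and minor arms. Names sharing a seed were to be found from sequences, which were not used here, so miR-590 was named from background knowledge. The other hairpins and ratios were picked with their values in view. The result of 1 further planned list is not reported here. The members and lists were chosen with earlier results of these data known. Alternatives were adding all precursor rows, counting names with identical counts at identical precursors once, leaving miR-122-5p or names under 10 reads out of the total, other sets of hairpins, and 1 read added to each arm. Python 3.11.15, numpy 2.4.6, scipy 1.17.1, pandas 2.3.3 and matplotlib 3.10.9 were used.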

Additional observations from a re-analysis of the deposited data

How the results depend on the processing

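Adding all precursor rows took the share of miR-21-5p from 4.46% to 3.42%, its share of the injury and fibrosis list to 49.6% and the rank of miR-21-3p from 260 to 272. The reads of both arms stayed as they were, so these shifts follow from larger totals of other names, which probably count some reads more than once. Counting names with identical counts at identical precursors once gave 4.51% for miR-21-5p and rank 257 for miR-21-3p. With miR-122-5p left out of the total the shares were 8.14% and 0.00402%. A higher 5p share than mir-21 was found in 14 of 179 hairpins and in 9 of 90 with at least 1000 reads. Among hairpins listed at 1 precursor it was found in 6 of 131, without the 8 that give a mature miRNA listed at a further precursor. The rank of miR-21-5p stayed at 4 and the 5p share of mir-21 kept its value within counting error under the alternatives run. For the ratio of miR-21-5p to miR-122-5p and its share of the PPARA-targeting list, only adding all rows was run. That could not change them, because every name involved stands on a single row. Of 58 other miRNAs with reads in the lists or from mir-590, adding all rows raised 12 by over 1.5 times. No paired analysis was possible because no library could be tied to an animal. Leaving out single libraries was not run, since columns without a matching sample were kept out of all computations. Depth limits miR-21-3p, whose 45 reads have an interval of 32.8 to 60.2.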
